A study of Mus musculus with 4 samples.

Results

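The 10 genes described here are members of the epidermal growth factor (EGF) and ErbB receptor system. They comprise 5 ligands (Hbegf, Areg, Btc, Nrg1 and Nrg4), the 4 receptors (Egfr, Erbb2, Erbb3 and Erbb4) and 1 intracellular inhibitor (Errfi1). They were picked by gene symbol out of 22322 genes in the count files, and the set was assembled because Hbegf was higher after pressure overload. The level of Hbegf is therefore given as a description without a test. All 10 genes were present in the files, and 8 of them passed the low-count filter that left 12499 genes for testing. Areg and Nrg1 did not pass it.

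The study profiled the transcriptome of cardiomyocytes in a mouse model of heart failure. Transverse aortic constriction (TAC) narrows the aorta and loads the left ventricle with pressure, and sham mice are the operated controls. There were 2 sham and 2 TAC libraries. In both groups male mice were operated on at 2 months of age and examined by echocardiography 14 weeks later, and the labels name no genetic change or drug in either group. The methods give the same number of weeks as an age when hearts were taken, so the age at that time is uncertain. None of the sources used here gives the strain. Hearts were dissociated by Langendorff perfusion, in which enzyme is driven through the coronary vessels, and each heart was divided among several assays, so each library is read here as 1 mouse.

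ErbB receptors are tyrosine kinases that signal as dimers. EGF-like ligands are made as membrane-bound precursors, and metalloproteases of the ADAM family release them. HB-EGF, amphiregulin and betacellulin bind EGFR, and betacellulin and HB-EGF also bind ERBB4, whereas neuregulins bind ERBB3 and ERBB4. ERBB2 binds no known ligand and serves as the preferred dimer partner, and ERBB3 has a weak kinase. In the heart, neuregulin from endothelial cells acts on ERBB4 and ERBB2 of cardiomyocytes, and loss of ErbB2 activity is known to cause cardiomyopathy. Errfi1 (also called Mig6) encodes an adaptor that binds the kinase domain of activated receptors and blocks it.

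The libraries held 24237777 to 32118323 counts in total and 14490 to 14939 genes with a count. Mitochondrially encoded genes took 39.8% to 47.4% of the counts. Defining cardiomyocyte genes were abundant, with 12 of 12 markers detected and a summed level of 56614 to 64470 CPM (counts scaled to a common library size with trimmed-mean factors). The TAC pair differed more from each other than the sham pair did, with a chi-square per degree of freedom over genes of 31.3 against 9.19.

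Among these 5 ligands Hbegf was the most abundant by FPKM, and its level in TAC was well above that in sham. Hbegf (ENSMUSG00000024486, minus strand of chr18:36504927-36515805 in mm10) encodes heparin-binding EGF-like growth factor, which is known as a growth signal released in hypertrophic hearts. Its level was 13.6 and 11.2 CPM in the sham libraries and 33.9 and 36.5 CPM in the TAC libraries. Both TAC values lay far above both sham values. The group means were 12.4 ± 1.70 CPM and 35.2 ± 1.86 CPM (SD, n = 2 each), a ratio of 2.84, and the fitted log2 fold change was 1.5 ± 0.12 (SE). This change ranked 54 among the 12499 genes tested, and 16 among the 8492 genes that averaged 5 CPM or more. The size of the difference ranged from 1.18 to 1.65 on the log2 scale over all other settings tried.

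**Figure D1:**
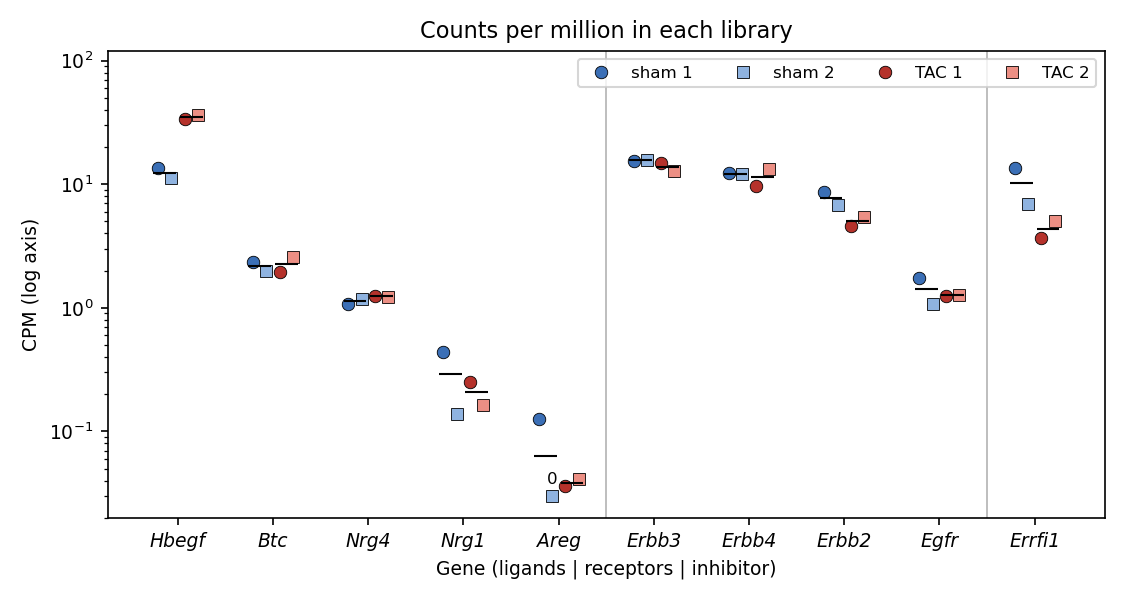
Level of each of the 10 genes in each library, in CPM on a log axis, with ligands, receptors and the inhibitor in separate blocks. Points are single libraries, black lines are group means, and a library without a count is drawn at the foot of the axis and marked 0. The group ranges of Hbegf lie far apart, at 11.2 to 13.6 against 33.9 to 36.5 CPM.

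Nrg4 and Btc were expressed at a low level that did not pass the test for a difference. Nrg4, a neuregulin that binds ERBB4 and is best known as a factor secreted by fat, was at 1.07 and 1.18 CPM in sham and 1.26 and 1.23 CPM in TAC. The TAC values were only slightly higher, and the log2 fold change was 0.14 ± 0.33 with an edgeR adjusted p of 0.815 and a 95% interval from −0.63 to 0.91, and −0.052 under total-count scaling. An exon of Fbxo22 on the opposite strand shares up to 202 bases with an exon of Nrg4 (chr9:55220222-55326844, minus strand). Since strand-specific counting is not stated, reads from the shared bases cannot be assigned to either gene. Btc, which encodes betacellulin (chr5:91357261-91402994, minus strand), was at 2.34 and 1.98 CPM in sham and 1.94 and 2.58 CPM in TAC. The TAC libraries enclosed the sham libraries on both sides. Its log2 fold change of 0.06 ± 0.27 (edgeR adjusted p = 0.913, 95% interval −0.58 to 0.70) turned to −0.12 under total-count scaling, −0.057 on log2(FPKM + 1) and down to −0.16 when single libraries were left out.

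Areg and Nrg1 were at the edge of detection. Areg, which encodes amphiregulin (chr5:91139599-91148432, plus strand), had 4 and 0 counts in the sham libraries and 1 count in each TAC library. A count of 0 in sham 2 allows a level of up to 0.104 CPM at 3 counts, so no difference was detectable at this depth. Nrg1, the neuregulin of endothelial and neural cells (chr8:31814551-32884029, minus strand), had 14 and 4 counts in sham and 7 and 4 counts in TAC. The groups overlapped, and the lincRNA Gm26578 on the opposite strand shares up to 482 bases with an exon of Nrg1. A second row with the symbol Nrg1 was at 0 in every library.

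To compare genes with each other, the FPKM values deposited by the authors were used, since they are scaled by gene length (fragments per kilobase of gene, scaled to library depth). The length behind them is not stated. Dividing each count by its FPKM and the library total gave 2374 to 2375 bases for Hbegf in every library, beside 4834 bases of annotated exon, but 1514 bases for Nrg4 in TAC 1 against 1932 to 1950 in the other libraries and 1147 to 7226 bases for Nrg1, so the levels of these genes depend on a length that was not fixed. The mean FPKM over the 4 libraries was 9.77 for Hbegf, 2.48 for Errfi1, 2.46 for Erbb3, 1.3 for Erbb2, 1.04 for Erbb4, 0.773 for Btc, 0.650 for Nrg4, 0.170 for Egfr, 0.10 for Nrg1 and 0.0425 for Areg. Neighbours in this order had separate ranges over the libraries only between Hbegf and Errfi1, where 4.9 stood against 4.84, between Erbb3 and Erbb2, where 2.13 stood against 1.9, and between Nrg4 and Egfr, where 0.61 stood against 0.26. The other neighbouring pairs overlapped. Errfi1 stood above Erbb3 only in sham 1, at 4.84 against 2.83 FPKM, and below it in the other libraries, at 2.36, 1.05 and 1.65 against 2.72, 2.13 and 2.15 FPKM. On CPM per kilobase of annotated exon, Hbegf was not separate from the next genes, with 2.81 and 2.31 in sham against 3.75 for Errfi1 in sham 1 and 2.62 for Erbb3 in sham 2. Within the summed FPKM of the 5 ligands, Hbegf made up 78.1% in each sham library and 89.1% and 90.6% in the TAC libraries. The ligand sum was 8.04 and 6.27 FPKM in sham and 13.9 and 17.1 FPKM in TAC. Ligands outside the members are not in this sum. Of them, Egf was at 2.61 and 4.22 FPKM in sham and 2.23 and 2.69 FPKM in TAC, above each ligand member other than Hbegf. Nrg2 was at 1.28 and 1.04 FPKM in sham and 0.31 and 1.28 FPKM in TAC.

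**Figure D2:**
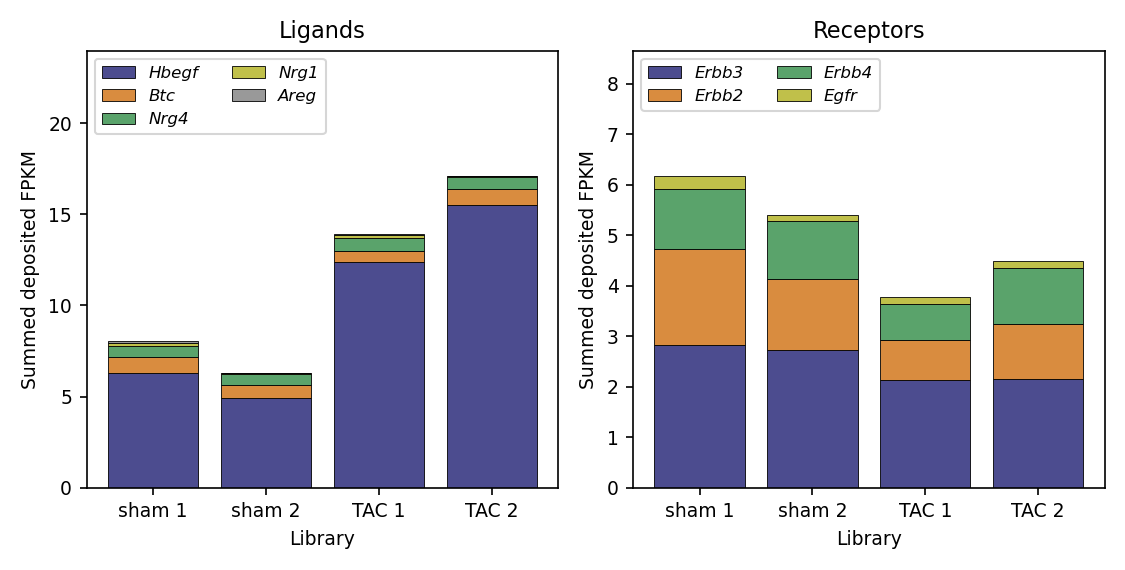
Summed deposited FPKM of the 5 ligand members (left) and the 4 receptors (right) in each library, with 1 stacked segment per gene and separate vertical scales. Egf and other ligands that are not members are left out. Ligand sums run from 6.27 to 8.04 in sham and from 13.9 to 17.1 in TAC. Hbegf is 78.1% of them in sham and 89.1% to 90.6% in TAC. Receptor sums run from 5.41 to 6.18 in sham and from 3.78 to 4.5 in TAC. FPKM is scaled to library depth without the trimmed-mean factors. On log2(FPKM + 1) the median log2 fold change of all genes was −0.13, beside −0.01 in edgeR.

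None of the 7 members other than Hbegf that were tested passed an adjusted p of 0.05 in edgeR, where 5.01% of all genes tested did (2.58% higher, 2.43% lower). At an unadjusted p under 0.05 there were 2 of them, Errfi1 and Erbb2, both lower in TAC, beside 27.5% of all genes in either direction. DESeq2 on the same counts called 1, Errfi1, beside 7.37% of all genes, and so did edgeR under total-count scaling, beside 4.25%. The sham and TAC values did not overlap for 5 of the 8 tested members, Hbegf and Nrg4 being higher and Erbb2, Erbb3 and Errfi1 lower, and the same held for 60.1% of all genes tested (29.8% higher, 30.3% lower), so this share is near the background. Since the set was chosen with results of these libraries known, these counts are not independent evidence of a direction.

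Erbb3 was the most abundant receptor by FPKM, followed by Erbb2 and Erbb4, and Egfr was low. Erbb2, the receptor without a ligand of its own (chr11:98412470-98437716, plus strand), was at 8.69 and 6.78 CPM in sham and 4.63 and 5.40 CPM in TAC. Both TAC libraries lay below both sham libraries, with means of 5.01 ± 0.546 against 7.73 ± 1.35 CPM (SD, n = 2 each). The log2 fold change was −0.63 ± 0.19 (95% interval −1.06 to −0.20), with an unadjusted p of 0.0106 and an adjusted p of 0.0885 in edgeR. The adjusted p ran from 0.033 to 0.397 over the other settings, and it was under 0.05 only without the low-count filter.

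Erbb3, a neuregulin receptor (chr10:128567523-128589652, minus strand), was at 15.5 and 15.7 CPM in sham and 14.8 and 12.8 CPM in TAC. The TAC libraries were slightly lower, by −0.18 ± 0.12 on the log2 scale, which did not pass the edgeR test (adjusted p = 0.357, 95% interval −0.45 to 0.10). The estimate was −0.078 when TAC 2 was left out, −0.28 when TAC 1 was, and −0.37 under total-count scaling. Erbb4, the neuregulin receptor of cardiomyocytes (chr1:68032186-69108059, minus strand), was at 12.4 and 12 CPM in sham and 9.58 and 13.2 CPM in TAC. The TAC libraries fell on either side of the sham pair, and the fitted difference was −0.10 ± 0.17 in log2 terms (edgeR adjusted p = 0.725, 95% interval −0.49 to 0.29), turning to 0.12 without TAC 1. Egfr, the receptor of Hbegf (chr11:16752203-16918158, plus strand), was at 1.74 and 1.08 CPM in sham and 1.26 and 1.27 CPM in TAC. The TAC values lay between the sham values, and the log2 fold change of −0.16 ± 0.36 (edgeR adjusted p = 0.800, 95% interval −1.0 to 0.67) turned to 0.23 without sham 1. These intervals leave room for changes of moderate size in Erbb4 and Egfr, so similar levels in the groups are not shown.

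By FPKM, Erbb3 made up 45.8% and 50.3% of the receptor sum in sham and 56.3% and 47.8% in TAC. Erbb2 made up 30.7% and 26.1% in sham and 21.2% and 24.2% in TAC. The Erbb2 share was lower in both TAC libraries than in both sham libraries, whereas the Erbb3 share overlapped between the groups.

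**Figure D3:**
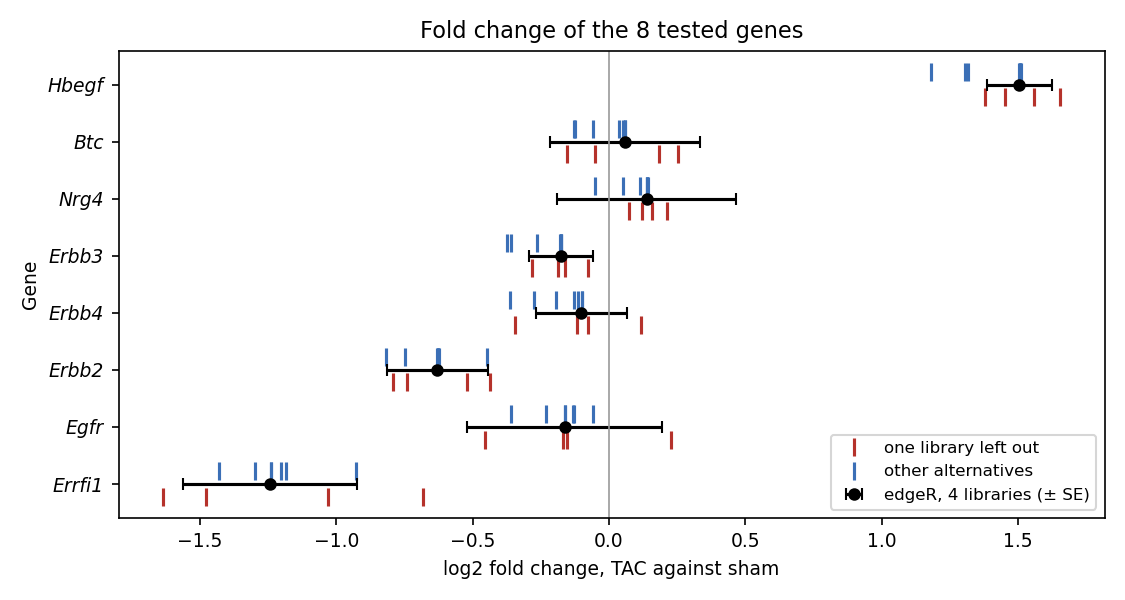
Log2 fold change of TAC against sham for the 8 tested genes, with black points and bars for the edgeR estimate ± SE from 4 libraries, red ticks for fits with 1 library left out and blue ticks for the other alternatives. Hbegf stays between 1.18 and 1.65 and Errfi1 between −1.63 and −0.68, while Btc, Nrg4, Egfr and Erbb4 have ticks on both sides of 0.

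Errfi1, the receptor inhibitor (chr4:150853919-150868892, plus strand), varied most within a group among the tested members. Its level was 13.4 and 6.92 CPM in sham and 3.66 and 4.99 CPM in TAC. Both TAC libraries were below both sham libraries, and sham 1 stood far above sham 2. The means were 10.2 ± 4.61 CPM in sham and 4.32 ± 0.941 CPM in TAC (SD, n = 2 each). The log2 fold change was −1.24 ± 0.32 (95% interval −1.98 to −0.50), with an unadjusted p of 0.00509 and an adjusted p of 0.0658 in edgeR. The call rested on the setting, and the size on single libraries. The edgeR adjusted p was 0.0431 under total-count scaling, 0.0491 with the replicate block and 0.00183 without the low-count filter, and DESeq2 gave 0.00287. The adjusted p was 0.0892 with limma-voom, and limma gave 0.116 on log2(FPKM + 1) and 0.196 on log2(FPKM + 0.1). Without sham 1 the log2 fold change shrank to −0.68, and without TAC 1 it was −1.03. It was −1.63 without sham 2 and −1.48 without TAC 2.

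Promoter sequences from RefSeq (GRCm38.p6) were matched by symbol for 7 of the 10 genes, giving 8 windows of 250 bases directly upstream of a start site. Of the 2 Errfi1 windows, 1 is shown with the Areg window because they alone of the 8 hold the full cyclic AMP response element TGACGTCA, printed in capitals, a letter pattern that reads the same on both strands and occurs in 1.55% of 32851 promoter windows of this length. The other Errfi1 window, at chr4:150853546-150853795, holds none of the patterns searched. The Errfi1 window shown is chr4:150854820-150855069 and the Areg window is chr5:91139349-91139598, both on the plus strand and written 5′ to 3′.
Errfi1: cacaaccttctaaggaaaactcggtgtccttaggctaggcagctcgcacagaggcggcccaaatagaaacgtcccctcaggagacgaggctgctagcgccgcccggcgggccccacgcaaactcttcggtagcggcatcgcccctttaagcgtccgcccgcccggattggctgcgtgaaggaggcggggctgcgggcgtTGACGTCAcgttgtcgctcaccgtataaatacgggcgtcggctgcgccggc
Areg: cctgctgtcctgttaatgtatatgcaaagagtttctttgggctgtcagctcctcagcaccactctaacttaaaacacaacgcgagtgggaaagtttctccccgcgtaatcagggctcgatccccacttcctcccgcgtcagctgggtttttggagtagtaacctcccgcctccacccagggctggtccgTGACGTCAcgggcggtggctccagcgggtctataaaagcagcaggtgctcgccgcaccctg
The element starts 51 bases upstream of the start site in Errfi1 and 61 bases upstream in Areg. Searched on both strands, the TATA pattern TATAAA was also found in these windows alone among the 8, at 28 and 31 bases, against 12.4% of all windows. The GC box GGGCGG was found for Errfi1, Areg and Egfr and in 32.7% of all windows. The AP-1 pattern TGANTCA and the E-box CACGTG were in none of the 8 windows, and in 6.75% and 6.02% of all. These matches describe letters and not binding. By level the pair differed, with Errfi1 at 2.48 and Areg at 0.0425 mean FPKM.

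The genes whose pattern over the 4 libraries lay nearest to that of Hbegf were sought among these 8492 genes. The root mean square distance in mean-centred log2 CPM was smallest for Igf2bp2, which encodes an RNA-binding protein, at 0.0425. It was 0.0518 for Cnksr1, which encodes a scaffold of Ras signalling. Mapk4, an atypical mitogen-activated protein kinase, followed at 0.0603, Klhl34 at 0.0626 and Uck2, a uridine-cytidine kinase, at 0.132. With 4 libraries in 2 groups this likeness mostly describes a log2 fold change of similar size, which was 1.46, 1.49, 1.5, 1.46 and 1.32 for the 5 genes in this order.

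Other genes of the pathway were counted from 5 lists of textbook members. Of the other EGF-like ligands, 3 of 6 were tested and none passed the adjusted test in edgeR or DESeq2, with 1 at an unadjusted p under 0.05 in edgeR. Egf, named after its values were seen, was at 9.39 and 16.6 CPM in sham and 10.4 and 10.6 CPM in TAC. Its log2 fold change of −0.30 ± 0.24 (edgeR adjusted p = 0.455) turned on the sham library kept, being −0.65 when sham 1 was left out (edgeR adjusted p = 0.0308) and 0.17 when sham 2 was. Tgfa, the transforming growth factor alpha gene, was at 0.695 and 0.799 CPM in sham and 0.143 and 0.327 CPM in TAC, with a log2 fold change of −1.67 ± 0.55 and an edgeR adjusted p of 0.108. At 4 to 23 counts per library its fold change was −1.18 without TAC 1 and −2.34 without TAC 2. The list's 3 fold changes were all below 0, where 50.9% of all genes were.

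Of the metalloproteases, their regulators and the other shedding genes, 11 were tested, 1 rose and none fell. The share of all genes called was 5.01%. The median log2 fold change was −0.03, beside −0.01 over all genes tested. It was −0.21 under total-count scaling, beside −0.20 over all genes. With a library left out it ran from −0.09 (without sham 1) to 0.02 (without sham 2). Adam19, a membrane metalloprotease that can cleave neuregulin, was at 27.4 and 13.2 CPM in sham and 54.1 and 46.8 CPM in TAC. Both TAC values were above both sham values, a rise of 1.31 ± 0.28 in log2 terms (edgeR adjusted p = 0.0454). The size depended on the sham libraries, at 1.93 without sham 1 and 0.89 without sham 2. The call was narrow, with an edgeR adjusted p of 0.0505 under total-count scaling and 0.0890 without TAC 1 and a DESeq2 adjusted p of 0.0958, and antisense genes overlap exons of Adam19. Adam12 had the lowest fold change of the list at −0.69 ± 0.56 (edgeR adjusted p = 0.451), which was −0.26 when sham 2 was left out and −1.03 when sham 1 was.

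Of the negative regulators that act on the receptors themselves, 13 of 15 were tested and none was called by edgeR or DESeq2. Over all genes these called 5.01% and 7.37%. Without the low-count filter edgeR called 1, Ptpn12, lower in TAC. The list had a median log2 fold change of −0.19 that was −0.37 under total-count scaling and −0.046 when TAC 1 was left out. Lrig3, of a family that holds receptors in check, had the lowest value at −0.89 ± 0.49 (edgeR adjusted p = 0.279), and at few counts it moved to −0.52 when TAC 1 was left out and −1.34 when TAC 2 was. Rnf41, which encodes the ubiquitin ligase that degrades ERBB3, had the highest at 0.16 ± 0.12 (edgeR adjusted p = 0.424), which became −0.032 under total-count scaling.

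Of the adaptors and kinases that relay the signal, 25 of 26 were tested, and in edgeR 1 rose and 1 fell. Over all genes 2.58% were called higher and 2.43% lower. DESeq2 called 1 higher and 2 lower, beside 7.37% of all genes. The list had a median log2 fold change of 0.04 that turned to −0.15 under total-count scaling. Grb10, an adaptor of receptor tyrosine kinases, was at 68.3 and 65.1 CPM in sham and 101 and 93.3 CPM in TAC. It rose by 0.54 ± 0.08 on the log2 scale (edgeR adjusted p = 0.0151, and 0.116 under total-count scaling). Gab1, the docking protein of EGFR and of neuregulin signalling, was at 54.2 and 50.4 CPM in sham and 39.6 and 41.5 CPM in TAC. It fell by 0.37 ± 0.08 in log2 terms (edgeR adjusted p = 0.0496). The call was narrow, with an edgeR adjusted p of 0.0543 under total-count scaling and 0.0814 with the replicate block. The log2 fold change of Gab1 ran from −0.31 without sham 1 to −0.42 without sham 2. Braf, a kinase upstream of ERK, had the lowest fold change of this list at −0.48 ± 0.13 (edgeR adjusted p = 0.0797). Its edgeR adjusted p was 0.0287 without the low-count filter and not under 0.05 in the other fits of all libraries. The fold change was −0.35 without TAC 1 and −0.62 without TAC 2.

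The ERK feedback genes are induced by the pathway, and most encode proteins that dampen it, while Etv4, Etv5 and Fosl1 encode transcription factors. They held no gene called by edgeR at the adjusted threshold. Of the 12 of 14 that were tested, 7 had an unadjusted p under 0.05 and all 7 were lower in TAC, beside the 27.5% of all genes, in either direction, given above. Their median log2 fold change was −0.57, and 10 of the 12 were below 0. Leaving out sham 1 gave a median of −0.35, sham 2 −0.64, TAC 1 −0.47 and TAC 2 −0.65. Spred3 had the lowest value at −1.80 ± 0.98 (edgeR adjusted p = 0.274), from 11 and 10 counts in sham and 0 and 5 in TAC. This value rests on TAC 1, since it was −0.75 without that library, and without TAC 2 only the library at 0 counts is left and no fold is given. Dusp4 had the highest value at 0.51 ± 0.42 (edgeR adjusted p = 0.459), which was 0.19 when sham 2 was left out and 0.95 when sham 1 was. The Sprouty genes are given as examples chosen after their values were seen. Spry1 was at 7.17 and 5.66 CPM in sham and 3.98 and 3.39 CPM in TAC, with an edgeR adjusted p of 0.0619. For Spry2, the levels were 8.98 and 8.34 CPM in sham and 5.31 and 5.77 CPM in TAC (edgeR adjusted p = 0.0525). DESeq2 called 1 gene of this list, Spry4. Counts of called genes, all lower in TAC, differed in other edgeR fits, at 2 under total-count scaling, 6 without the low-count filter and 0 with the replicate block. Over all genes these fits called 531 of 12499, 1676 of 16015 and 566 of 12499. Exons of genes on the opposite strand overlap those of Gab1, Braf, Spred3, Tgfa and, by 9 bases, Erbb2 (with Mien1), so a part of these counts may belong to the partner.

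**Figure D4:**
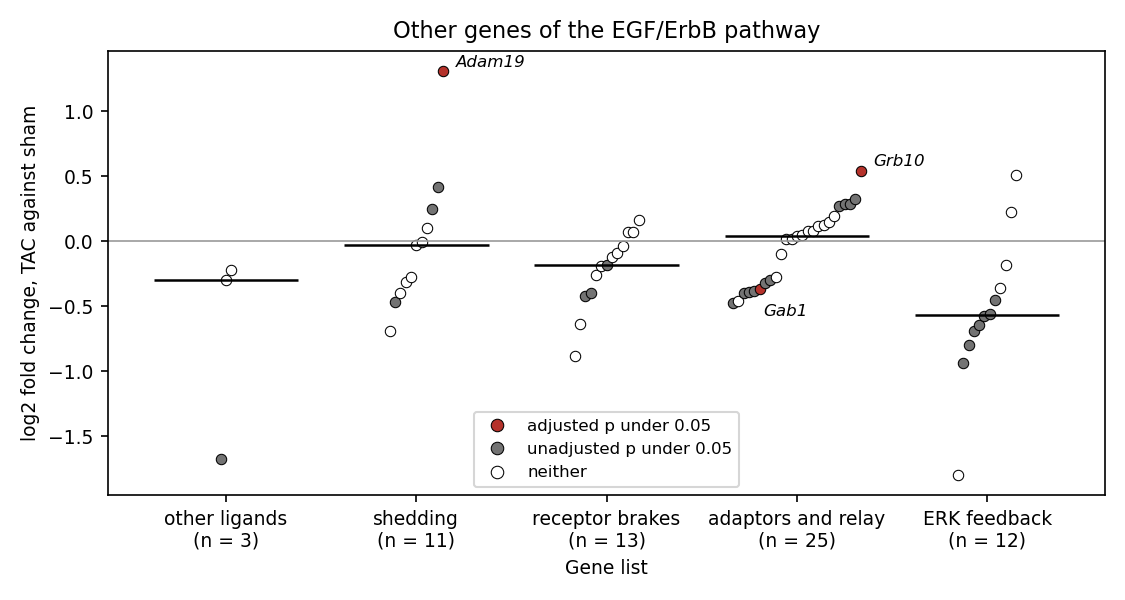
Log2 fold change of TAC against sham for each tested gene of the 5 pathway lists, with a horizontal line at the median of each list and colours for the edgeR test. Adam19 and Grb10 rose and Gab1 fell at an adjusted p under 0.05, and the ERK feedback list has its median at −0.57.

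Several marker lists were lower in the same libraries as Errfi1, Erbb2 and the feedback genes. Immediate early genes, which respond to growth factors and to cell handling alike, summed to 1255 and 759 CPM in sham and 391 and 354 CPM in TAC, with 10 of 22 lower and 1, Nr4a3, higher at an edgeR adjusted p under 0.05. Endothelial markers summed to 791 and 631 CPM in sham and 381 and 531 CPM in TAC, and 15 of 15 had fold changes below 0, of which 3 were called (Cdh5, Esam and Egfl7). Fibroblast markers summed to 569 and 394 CPM in sham and 229 and 312 CPM in TAC, also with 15 of 15 below 0 and 4 called (Dcn, Dpt, Gsn and Lum). Macrophage markers summed to 149 and 75.8 CPM in sham and 41.0 and 75.9 CPM in TAC, so that sham 2 and TAC 2 were alike, with 15 of 15 below 0 and none called in edgeR, against 7 at an unadjusted p under 0.05 and 2 called by DESeq2 (Cd163 and Itgam). Mural cell markers summed to 788 and 820 CPM in sham and 455 and 600 CPM in TAC, with 12 of 12 below 0 and 2 called (Pdgfrb and Abcc9). These counts stand beside 5.01% of all genes called and 50.9% below 0. They depended on single libraries, with 1 endothelial, 0 fibroblast and 0 mural genes called when TAC 1 was left out, 14, 8 and 10 when TAC 2 was, 12, 9 and 4 when sham 2 was, and 3, 3 and 4 when sham 1 was. For macrophage markers 10 were called when sham 2 was left out and 7 when TAC 2 was. These markers are named after their values were seen. The part of these cells and of the immediate early genes in the levels of Errfi1, Erbb2 and the feedback genes was not tested. In such bulk samples fewer cells of a type and less RNA per cell cannot be told apart. Nor can Abcc9 reads from mural cells be told from Abcc9 reads of cardiomyocytes.

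For 3 further lists the defining markers were at or near 0. Schwann cell markers, listed because nerve-associated cells express Erbb3, summed to 8.34 and 6.85 CPM in sham and 4.84 and 6.18 CPM in TAC. All 4 that were tested had fold changes below 0, where 50.9% of all genes did, and none was called in edgeR. In every library 6 of 10 were under 1 CPM, Sox10 among them at no more than 0.382 CPM. The part of Schwann cells in the level of Erbb3 was not tested. Lymphoid and mast cell markers summed to 5.09 and 4.38 CPM in sham and 1.94 and 3.23 CPM in TAC, with 11 of 12 under 1 CPM. Of the adipocyte markers 7 of 8 were under 1 CPM, and Adipoq, Plin1, Lep and Ucp1 were at 0 throughout. Fabp4, which capillary endothelium also expresses, made up nearly all of the sum. This sum was 151 and 156 CPM in sham and 67.6 and 91.9 CPM in TAC. The 1 adipocyte marker tested had a log2 fold change of −0.95 and was called lower in edgeR. Cardiomyocyte markers went both ways, with 9 of 12 fold changes above 0 and 3 below. In edgeR 1 was called, Csrp3, at 0.62 (adjusted p = 0.0196), beside 5.01% of all genes. DESeq2 called 5 higher and 1 lower, beside 7.37% of all genes. Under total-count scaling edgeR called 0 higher and 1 lower, beside 4.25% of all genes. The median log2 fold change of the list was 0.09, which became −0.10 under total-count scaling.

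**Figure D5:**
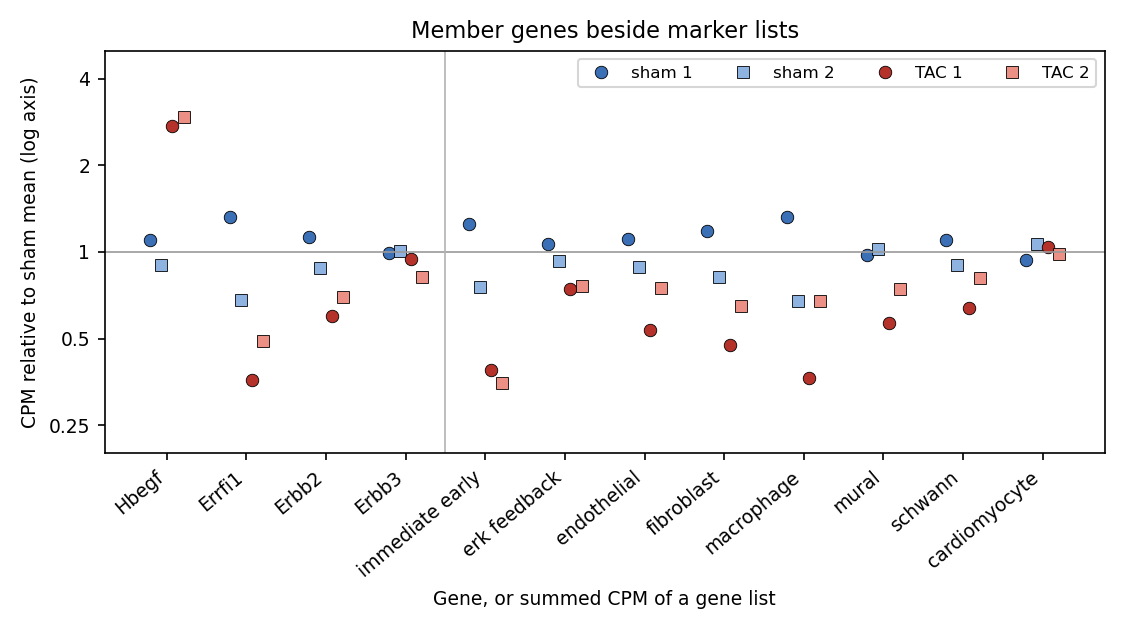
CPM of 4 member genes and summed CPM of the gene lists in each library, divided by the sham mean, on a log axis. Hbegf is above 1 in both TAC libraries at 2.74 and 2.95, Errfi1, Erbb2, the immediate early and the endothelial, fibroblast and mural lists are below the sham libraries, and the cardiomyocyte list stays between 0.935 and 1.06.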

How the data were processed

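RNA-seq of isolated cardiomyocytes was analysed in 2 sham and 2 TAC libraries. For each gene the authors deposited an expected count and an FPKM value per library. The submitters' processing notes name Bowtie2 2.2.8, StringTie 1.3.1 and mm10 without giving their roles. No source used here names the counter or says whether it read strand. Some counts were not whole (1432 to 1519 genes per library) and were rounded. The files held 16 rows without a symbol, which were not removed from the totals or before the low-count filter. Coordinates come from the GENCODE annotation of the same build.

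Counts were tested with edgeR 4.0.16 (quasi-likelihood, filterByExpr, trimmed-mean scaling, R 4.3.3) in all 4 libraries without a covariate, with Benjamini-Hochberg adjustment over 12499 genes and a threshold of 0.05. The biological coefficient of variation was 10.5%. Permuting 2 against 2 libraries exactly gives no p under 0.333 for 1 gene. Intervals and the count floor of 3 cover the fit or counting error only. Alternatives were total-count scaling (which the study's methods name), no low-count filter, DESeq2 1.42.0, limma-voom (limma 3.58.1), limma on log2(FPKM + 1) and log2(FPKM + 0.1), a replicate block, each library left out, and CPM per kilobase for the order of levels. The procedure was tested on simulated data with known changes.

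Named were all 10 members, every pathway gene called, the largest rise and fall in each pathway list (no gene of the other-ligand list had a value above 0) and the 5 genes nearest to Hbegf. The members and lists were chosen with earlier results of these data known. Other genes are named as examples.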

Additional observations from a re-analysis of the deposited data

How the results depend on the processing

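Over all genes 626 passed (322 higher, 304 lower), 531 under total-count scaling (105 higher, 426 lower), where the median log2 fold change of all genes was −0.20, 1676 without the low-count filter, 111 on log2(FPKM + 1), 0 on log2(FPKM + 0.1) and 301 (without TAC 1) to 1336 (without TAC 2) with a library left out. Of the 7 tested members other than Hbegf, 0 passed, against 1 under total-count scaling, 2 without the filter, 1 in DESeq2 and 0 to 1 with a library left out. Of the pathway genes 3 passed (2 higher, 1 lower), against 3 others (Plcg1, Phlda1 and Spry1, all lower) under total-count scaling, 15 without the filter, 0 on either FPKM scale and 3 to 10 with a library left out. The order of levels kept 6 of 10 ranks on CPM per kilobase. Same-numbered libraries are different mice, and their deviations correlated at −0.242 for number 1, so the numbers were not taken as pairs. With the replicate block 566 genes and 1 member (Errfi1, adjusted p = 0.0491) passed in edgeR, Gab1 no longer did (adjusted p = 0.0814), and with the numbers crossed, a choice made after seeing the data, 2131 genes. Signs turned for Btc (−0.12 under total-count scaling, −0.057 and −0.13 on FPKM, −0.16 to 0.25 with a library left out), Nrg4 (−0.052, total-count), Egfr (−0.46 to 0.23, library left out), Erbb4 (−0.35 to 0.12, library left out), Rnf41 (−0.032 under total-count scaling, −0.024 and −0.030 on FPKM) and the cardiomyocyte list's median (−0.10, and −0.080 on both FPKM scales), as did the median of the adaptors (−0.15, total-count) and of the shedding genes (0.02, without sham 2). The cause was not tested. Low depth, at 14 counts or fewer per library, kept Areg and Nrg1 out of the tests.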
